A study of Mus musculus with 3 samples.

Results

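The ameloblasts of the Cxcl12-creER P6 library were 90 cell barcodes in which Amelx and Ambn, the genes of the enamel proteins amelogenin and ameloblastin, together made up at least 1000 of every 10000 unique molecular identifiers (UMIs, 1 per captured transcript molecule). They were taken from the 1131 barcodes that showed 500 or more genes and no more than 15% mitochondrial UMIs, of 1691 barcodes in the library and 15912 in the series, and were 7.96% of the kept barcodes (exact 95% interval 6.45 to 9.69, counting error only). The library was made from mandibular molars at postnatal day 6. The mice carried Cxcl12-creER, an inducible recombinase under the control of the chemokine gene Cxcl12, and R26R(tdTomato/+), a reporter that recombination switches on. Dissociated pulp and periodontium were sorted for red fluorescence, and the cells are labelled as mesenchymal, so an enamel-forming epithelial cell is not what the label names. The other groups, used here only to apply the same rule, were Cxcl12-GFP/+ molars at day 6 and Col1a1-GFP; Cxcl12-creER; R26R(tdTomato/+) molars at day 25. Each group was 1 library. The labels used here do not give the dose and time of tamoxifen or the number of pooled animals.

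Ameloblasts are the epithelial cells that build enamel. In the secretory stage they release amelogenin, ameloblastin and enamelin (Enam) together with the protease Mmp20. In the maturation stage they release the protease Klk4, rest on a specialised basal lamina that contains amelotin (Amtn) and Odam, and move calcium, phosphate and bicarbonate while the enamel hardens. Both stages can be found in the same growing crown, since enamel formation spreads from the cusps toward the neck of the tooth.

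Depth and independence of the barcodes were examined first. Kept barcodes of the library had a median of 1470 UMIs. The ameloblast barcodes had a median of 4612, and of 1835 once Amelx and Ambn were set aside, with a range from 770 to 58076 (called other UMIs below). The 12 barcodes with at least 10000 other UMIs held 69.4% of all other UMIs of the ameloblasts, so summed values rest mainly on them. None of the 90 barcodes recurred in another library, although 5 barcodes of this library were shared with the day 25 library. Of the 12 deep barcodes, 4 had at least 10 UMIs of Xist, the RNA of the inactive X chromosome, and no UMI of 4 Y-linked genes, and the other 8 had a Y-linked UMI, so cells of both sexes were present.

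Many shallow ameloblast barcodes could not be told apart beyond counting error. For each pair of barcodes a chi-square was divided by its degrees of freedom, which gives about 1 where counting error is the only difference. Joined at an average of 1.5, the 90 barcodes fell into 30 sets, of which 19 were single barcodes and the largest held 20, 12, 9, 9 and 6. The threshold was chosen after the values were seen, and it gave 45 sets at 1.2 and 18 at 2. The 12 deep barcodes gave higher values with each other, 2.23 to 43.2 with a median of 7.07 over 66 pairs. Where barcodes differ the value rises with depth, so shallow and deep pairs cannot be compared directly. Of the 78 shallower barcodes, 44 lay within 1.5 of their nearest deep barcode. Medians over the 78 were 1.33 to the nearest deep barcode and 1.42 to the second nearest. Within the set of 20, single pairs reached 4.25. Such sets were not particular to ameloblasts. Among barcodes with 900 to 3000 other UMIs, 70.5% of 61 ameloblasts and 76.2% of 668 other barcodes were in sets of at least 5. The 61 and the 668 were joined separately. A set of 5 is reached more easily among 668 barcodes, so the sizes of these shares cannot be compared. Whether the barcodes of a set were separate cells was not tested, so the count of 90 is a count of barcodes.

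**Figure D1:**
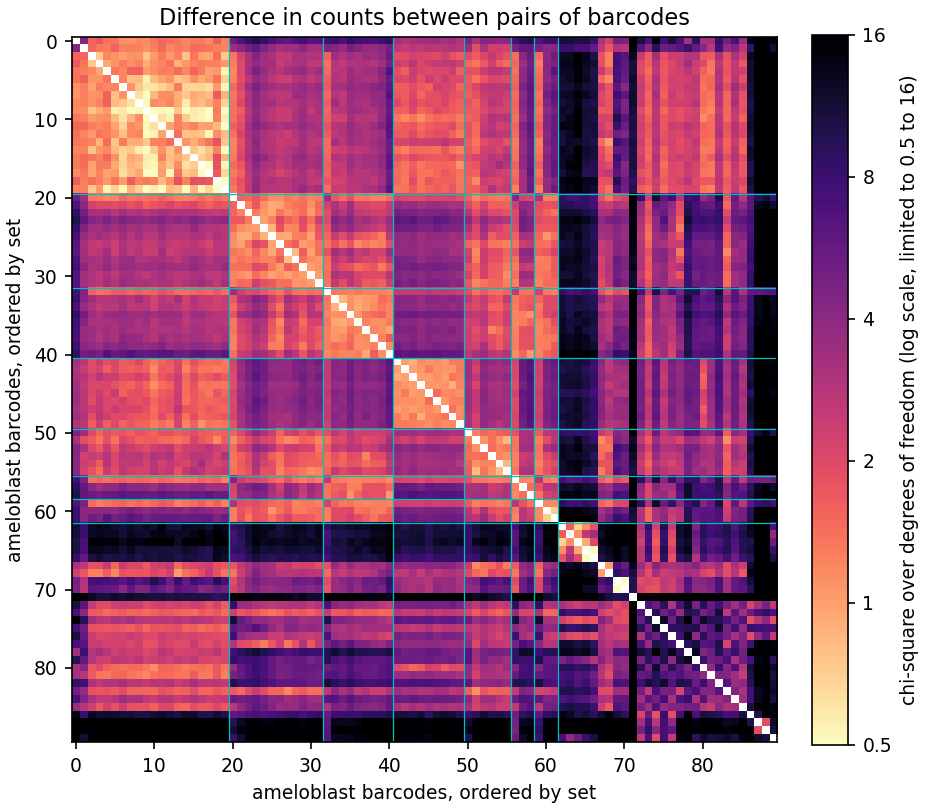
Difference in counts between pairs of the 90 ameloblast barcodes, as chi-square over degrees of freedom on a log color scale, with both axes ordered by set and lines marking the 7 largest sets. Pale blocks on the diagonal are the sets of 20, 12, 9, 9 and 6 barcodes, and the dark rows near the end belong to sets and single barcodes that differ from nearly all others.

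The Amelx and Ambn share left a gap between the ameloblasts and the other barcodes. Amelx and Ambn took 1344 to 7926 of every 10000 UMIs in the ameloblasts, with a median of 5964, and 0 to 374 in the other 1041 barcodes, with a median of 11.1. No kept barcode lay between 374 and 1344. These values chose the barcodes and are given as a description. Amelx (ENSMUSG00000031354, GRCm38 chromosome X, 169176114 to 169187200, minus strand, inside the gene Arhgap6 on the opposite strand) supplied 564485 UMIs, 48.0% of all UMIs of the ameloblasts. Ambn (ENSMUSG00000029288, chromosome 5, 88455991 to 88468531, plus strand) supplied 76144 UMIs or 6.47%. The 90 barcodes held 93.8% of the Amelx and 95.2% of the Ambn UMIs of the library. Amelx exceeded Ambn in every one of them, by 3.48 to 18.6 times.

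**Figure D2:**
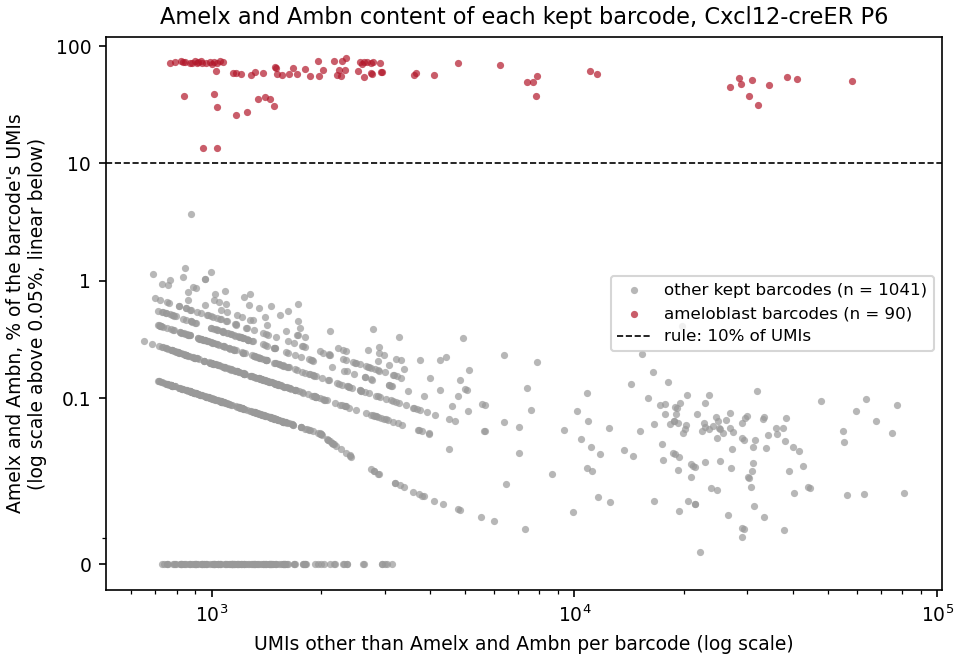
Amelx and Ambn as a percentage of each barcode's UMIs (log scale above 0.05%) against its other UMIs (log scale), for the 1131 kept barcodes of Cxcl12-creER P6. The 90 ameloblast barcodes lie between 13.4% and 79.3% at every depth, and the 1041 others lie at or below 3.74%.

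The members nearest to the threshold differed from the rest. The 2 with 1344 and 1357 per 10000 held 8 and 9 UMIs of the collagen gene Col1a1 and 0 and 2 UMIs of Enam. The next member, at 2570 per 10000, held 32 Enam and 0 Col1a1 UMIs. Just below the threshold, the barcodes at 374, 129 and 119 per 10000 held 1, 0 and 0 Enam UMIs. The other 88 ameloblast barcodes had at least 2000 per 10000, and 71 had at least 5000.

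The ameloblast label was checked against the remaining markers, with Amelx and Ambn left out of every total. At least 1 Enam UMI was found in 89 of 90 ameloblasts (98.9%, 94.0 to 99.97) and in 71 of 1041 other barcodes (6.82%). Mmp20 was found in 81.1% and 0.384%, and Calb1, the calcium-binding protein calbindin, in 98.9% and 2.88%. After each barcode was thinned to 500 other UMIs, which left out no barcode, the shares were 98.9% and 1.44% for Enam, 54.4% and 0% for Mmp20, and 86.7% and 0.672% for Calb1. Median depths were 1835 and 1402 other UMIs. Every ameloblast held a UMI of Enam, Mmp20 or Calb1, at 9.64 to 702 per 10000 other UMIs, against a highest value of 25.8 in the other barcodes.

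Markers of the sorted mesenchyme were lower. All 8 dental mesenchyme markers were lower in the ameloblasts, with a summed level of 0 to 327 per 10000 (median 10.9) against 0 to 2086 (median 231). The odontoblast markers Dspp, Dmp1, Phex, Ifitm5 and Nes had no UMI in the ameloblasts, and the list sum, from Col1a1 alone, was 0 to 94.8 per 10000 against 0 to 1566. A Col1a1 UMI was seen in 27 of 90 ameloblasts and 911 of 1041 other barcodes, and in 7.78% and 78.4% after thinning. Col1a2, the partner chain of Col1a1 in type I collagen, was the highest of the mesenchyme markers in the ameloblasts, at 1207 CPM against 4809, 3.99-fold lower (3.69 to 4.32). It was seen in 63 of 90 ameloblasts, and in 27.8% against 63.1% after thinning, and 1 barcode held 167 of its 647 UMIs. In the ameloblasts Col1a2 had more UMIs than Col1a1 (647 against 59), and in the other barcodes fewer (23652 against 42732). The endothelial, mural, Schwann, and macrophage and leukocyte lists gave 1, 2, 5 and 3 UMIs in all, with Pecam1, Pdgfrb, Sox10 and Ptprc at 0. The erythroid list gave 6. The part of free RNA in these low counts was not tested.

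Transcripts of the sorting gene and of the reporter were rare. Cxcl12 gave 4 UMIs, 1 in each of 4 ameloblasts, or 7.46 CPM (2.03 to 19.1), where CPM is the number of a gene's UMIs per 1000000 other UMIs of the same barcodes. The other barcodes had 245 CPM (231 to 259), so the ameloblasts were 32.8-fold lower (12.8 to 121). The tdTomato transcript also gave 4 UMIs in 4 ameloblasts, at 7.46 CPM, against 216 UMIs and 43.9 CPM in 140 of the 1041 others, 5.89-fold lower (2.27 to 21.8). No Cxcl12 or tdTomato UMI was left in any ameloblast after thinning, which allows up to 4.02% of barcodes with 1, against 12.4% and 2.02% of the others. Only 13.4% of the other barcodes of this sort had a tdTomato UMI at all. How these cells passed the red gate was not tested.

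With 1 library, no test between groups of cells was made. Ratios of summed CPM carry exact 95% intervals for counting error. A gene counts as higher or lower here when the log2 ratio, with 1 CPM added, passed 2-fold. Genes were compared when the group with more of the transcript had 20 CPM and 10 UMIs or more. A gene under 20 CPM in the other barcodes was therefore compared only where it was higher in the ameloblasts. The counts by list below are a description for this reason. Of 7529 genes compared, 1124 (14.9%) were higher and 2108 (28.0%) lower in the ameloblasts, with a median log2 ratio of -0.25. The ameloblasts were chosen by their expression, so these counts describe them and are not a finding.

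Enamel matrix genes led the difference. Enam (ENSMUSG00000029286, chromosome 5, 88487975 to 88506049) had 14657 UMIs or 27336 CPM (26895 to 27782) against 17.1 CPM (13.6 to 21.1), 1601-fold higher (1292 to 2008). In the 12 deep barcodes Enam ran from 13220 to 45476 CPM with a median of 33022, so every one of them lay far above the summed level of the other barcodes. The deep barcodes weigh most in a sum, and the mean over barcodes gave smaller log2 ratios, 9.16 for Enam, 8.51 for Calb1 and 7.29 for Csn3, against 10.56, 9.80 and 8.49 from the sums. Mmp20 (ENSMUSG00000018620, chromosome 9, 7628231 to 7674979) had 2710 CPM against 0.813 CPM from 4 UMIs, 3332-fold higher (1299 to 12246). Klk4 (ENSMUSG00000006948, chromosome 7, 43881160 to 43885804) had 688 CPM, of which 1 barcode held 48.2%, Amtn had 561 CPM and Odam 267 CPM. All 5 of the 5 enamel matrix genes and proteases compared were higher, with a median log2 ratio of 8.74, beside -0.25 over all genes. All 5 were under 20 CPM in the other barcodes, so they were compared only through their level in the ameloblasts. That all were higher follows from the minimum level and is not a finding. Tuft1 and Odaph did not reach the minimum level. Odam differed from the others in the list, since 90 Odam UMIs lay in 23 other barcodes and its ratio was 14.6 (11.1 to 19.2). That ratio rests on the 11 ameloblasts with Klk4, which held 141 of the 143 Odam UMIs, 108 of them in 1 barcode. In the other 79 ameloblasts Odam had 2 UMIs or 4.66 CPM, below the 18.3 CPM of the barcodes outside the rule.

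**Figure D3:**
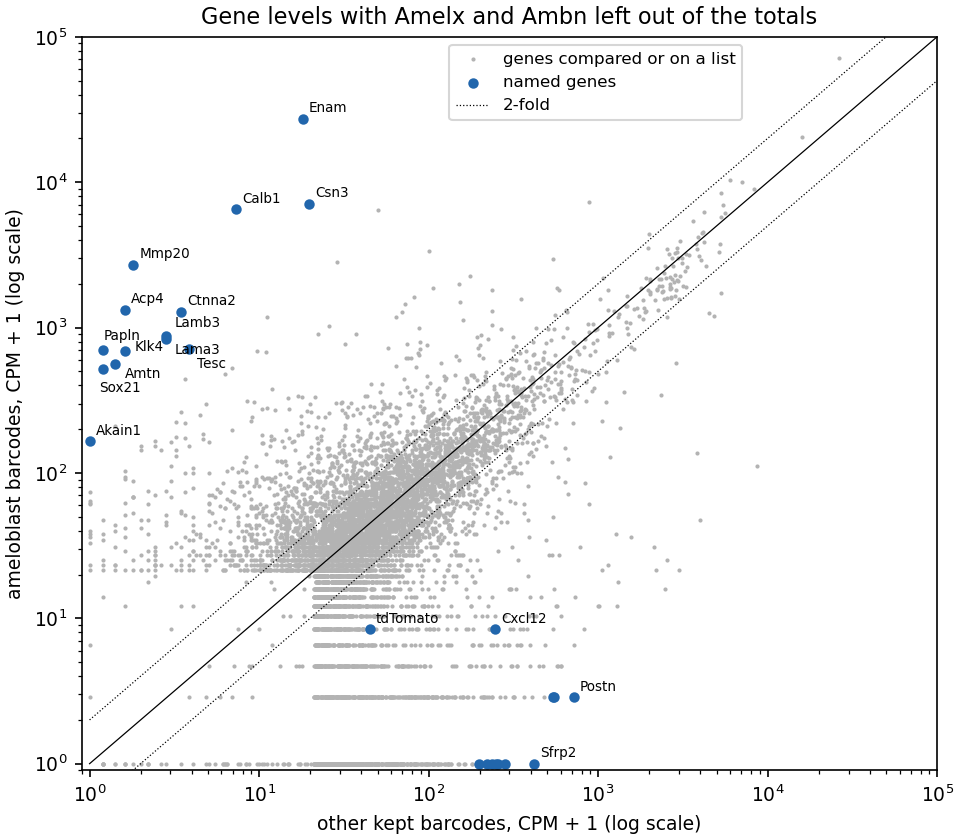
CPM + 1 of each gene in the 90 ameloblast barcodes (vertical, log scale) against the 1041 other kept barcodes (horizontal, log scale), with Amelx and Ambn left out of the totals. Named genes are blue, with the unlabelled ones at the bottom being genes of 0 or 1 UMI in ameloblasts. Enam stands at 27336 against 17.1 CPM and Csn3 at 7104 against 18.7 CPM.

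Ambn, Enam, Amtn, Odam and the casein gene Csn3 lie close together on chromosome 5. Between Csn1s1 and Enam, a stretch of 840 kb, the gene list holds 22 genes. Only Odam (143 UMIs), Csn3 (3809), Amtn (301), Ambn (76144) and Enam (14657) had over 100 UMIs in the ameloblasts, while 16 of the 22, including the milk casein genes Csn1s1 and Csn2, had 0. Csn3 encodes kappa-casein and belongs to the secretory calcium-binding phosphoprotein genes, as Ambn, Enam, Amtn and Odam do. The 100 bases before the start of the enamel genes are shown because a run of 7 letters, TGATTGG, which contains the CCAAT box in reverse, was present in each of them, on the strand of the gene, and is in capitals. The sequences are from RefSeq (GRCm38.p6), 5′ to 3′ on the strand of the gene, and end at the base before the start.
Amelx, chrX:169187210-169187309, minus strand: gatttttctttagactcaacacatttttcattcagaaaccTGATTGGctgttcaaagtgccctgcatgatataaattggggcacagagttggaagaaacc
Ambn, chr5:88455891-88455990, plus strand: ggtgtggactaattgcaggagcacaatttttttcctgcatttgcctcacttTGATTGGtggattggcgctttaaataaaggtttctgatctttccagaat
Enam, chr5:88487875-88487974, plus strand: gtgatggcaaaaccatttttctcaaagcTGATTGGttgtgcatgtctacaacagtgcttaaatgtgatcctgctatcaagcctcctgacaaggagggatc
Amtn, chr5:88376008-88376107, plus strand: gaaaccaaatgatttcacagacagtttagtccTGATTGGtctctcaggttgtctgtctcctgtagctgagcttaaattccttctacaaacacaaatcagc
Odam, chr5:87884910-87885009, plus strand: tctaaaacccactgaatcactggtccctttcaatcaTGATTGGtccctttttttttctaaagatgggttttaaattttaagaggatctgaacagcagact

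The run began 60, 49, 72, 68 and 64 bases before the start of Amelx, Ambn, Enam, Amtn and Odam. It was found on either strand in 4.58% of 32851 RefSeq promoter windows of 100 bases, and on the strand of the gene in 2.33%. The shorter ATTGG, the CCAAT box in reverse, was found in 18.9% and 10.4%. The 7 letters were chosen after these sequences had been read, so the match is a description. The 18 genes looked up were Amelx, Ambn, Odam and the genes with the 15 highest ratios. Of the 18, 14 had an entry and 5 held the run. Mmp20, Klk4, Acp4, Papln, Sox21, Ctnna2, Lamb3, Tesc and Akain1 did not hold the 7 letters in the window.

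A list of genes linked to enamel mineral and inherited enamel defects was the next group. Of 14 compared, 13 were higher, with a median log2 ratio of 4.63. The exception was the tight junction gene Cldn19, with 106 UMIs in the other barcodes and 0 in the ameloblasts. Acp4, an acid phosphatase, had 1328 CPM (1232 to 1429) from 80 of 90 barcodes against 0.610 CPM from 3 UMIs. Fam20a, a partner of the kinase that phosphorylates secreted enamel proteins, had 304 CPM against 8.34, 36.5-fold higher (25.8 to 52.7). Relt, a receptor of the tumour necrosis factor family, had 170 CPM against 3.66, and Itgb6, an epithelial integrin, 151 against 1.02.

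Genes of attachment to the basement membrane went in opposite directions. Lama3 and Lamb3, chains of an epithelial basement membrane laminin, were both high. Lama3 had 832 CPM against 1.83 and Lamb3 877 against 1.83, with ratios of 455 (237 to 1001) and 479 (250 to 1054). The hemidesmosome collagen Col17a1 was 19.8-fold higher. The stromal basement membrane genes Col4a1, Col4a2 and Nid1 had 8, 3 and 1 UMIs in the ameloblasts, against 304, 182 and 280 CPM in the other barcodes. In all, 10 of 14 genes of the list were higher and 3 lower.

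Keratins of stratified epithelium were high, with Krt14 at 1884 CPM (1769 to 2004) against 105, and Krt5 at 791 against 88.0. Krt14 was detected in 93.3% of the ameloblasts and 58.9% after thinning, against 5.38% and 2.88%. Krt17 was lower, at 33.6 against 81.5 CPM, a difference within 2-fold without the ameloblasts with Klk4, and Krt15, Krt7, Krt18 and Krt19 had no UMI. Perp, a component of desmosomes, was 25.0-fold higher and the tight junction gene Cldn1 14.7-fold. Of 14 keratin and adhesion genes compared, 10 were higher and 3 lower.

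Genes of calcium handling and pH control were mostly higher. Calb1 (chromosome 4, 15881264 to 15908064) had 6503 CPM (6289 to 6723) against 6.30, 1032-fold higher (726 to 1521). The calcium pumps Atp2b1, of the plasma membrane, and Atp2a2, of the endoplasmic reticulum, were 11.4-fold and 8.09-fold higher, and the calcium release channels Itpr1 and Itpr3 had 256 and 226 CPM against 24.8 and 7.93. Of 14 calcium and phosphate genes compared, 11 were higher, and the pyrophosphate transporter gene Ank was lower, with 0 UMIs. Of the 25 genes of that list, 9 had no UMI, S100g and Vdr among them. Of 10 genes of pH control, 8 were higher and none lower, among them the carbonic anhydrase Car2 at 614 against 77.9 CPM. Of its 329 UMIs 321 lay in the 11 ameloblasts with Klk4 and 236 in 1 barcode, and the other 79 ameloblasts had 18.6 CPM, which is lower than the 77.9 CPM. Without the 11, 4 of 8 pH genes compared were higher, and Car2 was lower. Car6, a secreted carbonic anhydrase, had 39 UMIs in the ameloblasts and 0 in the other barcodes, at least 119-fold higher, and all 39 were in ameloblasts with Klk4. The bicarbonate cotransporter Slc4a4 and the exchanger Slc4a2 were 4.10-fold and 4.03-fold higher.

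**Figure D4:**
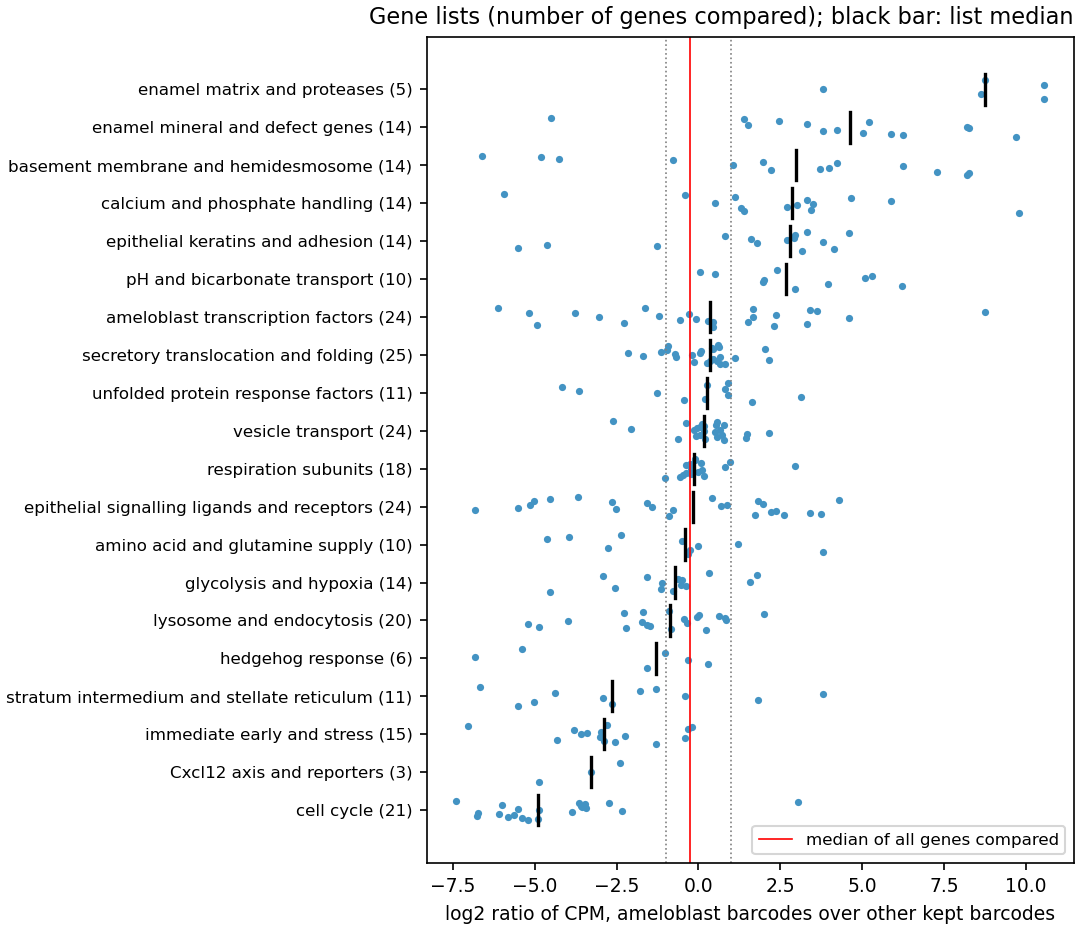
Log2 ratio of CPM, ameloblast over other kept barcodes, for each gene of 20 lists that passed the minimum level (points; number compared in parentheses), with list medians as black bars, 2-fold limits dotted and the median of all genes in red. Enamel matrix genes have a median of 8.74 and cell cycle genes one of -4.91.

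Transcription factors and signals were mixed. Of 24 factors compared, 10 were higher and 8 lower. Sox21, a repressor of the SoxB family, had 276 UMIs in 41 ameloblasts against 1 UMI elsewhere. Satb1, a chromatin organiser, was 24.9-fold higher (20.9 to 29.7), Sp6 (epiprofin, needed for ameloblast differentiation) 10.4-fold, Dlx3 2.91-fold, and Msx2 had 257 against 51.4 CPM. Nfic, a factor of the root mesenchyme, was 3.14-fold lower. Among 24 ligands and receptors, 9 were higher and 10 lower, with Wnt4 at 300 against 27.4 CPM and Bmp4 at 438 against 70.8. Of 6 hedgehog response genes none was higher, and Hhip, Gas1, Ptch1 and, by a log2 ratio of -1.03 that several alternatives brought within 2-fold, Smo were lower. Ptch1, the receptor and target of the pathway, was 2.97-fold lower (2.29 to 3.93), and the ligand Shh had 1 UMI.

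The secretory machinery differed little as a group. Of 25 genes of translocation and folding, Ssr4, Spcs2 and Dnajb9 were higher and 3 lower, with a median log2 ratio of 0.35. Ssr4, a subunit of the translocon-associated complex, was 4.46-fold higher (4.11 to 4.85). The chaperones Hsp90b1, Pdia6 and Calr were 3.27-fold, 4.51-fold and 2.22-fold lower. Of 24 vesicle transport genes 3 were higher and 2 lower. The cargo receptor Surf4 was 4.46-fold higher (3.91 to 5.08). Xbp1, a factor of the unfolded protein response, had 351 against 112 CPM, while Creb3l1, which serves collagen secretion in bone, had 3 UMIs, 14.6-fold lower (4.98 to 71.3). Leaving Amelx and Ambn out of the totals sets these values, since 54.4% of the molecules in the ameloblasts are not counted in them.

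Most genes of the cell cycle list were low. Of 21 cell cycle genes, 20 were lower and the exception was the cell cycle inhibitor Cdkn1a, at 614 against 74.4 CPM, 8.25-fold higher (7.08 to 9.60). Inhibitors did not go 1 way, since Cdkn1c, another inhibitor, was among the 20 lower genes. It had 1 UMI, or 1.87 against 478 CPM, 256-fold lower (46.0 to 10131). Mki67 had 1 UMI and Top2a 3, and Cdk1, Ccnb1, Ccnb2 and Cenpf had 0. Of 15 immediate early and stress genes 12 were lower, with Junb 20.5-fold lower (12.2 to 37.5) and Fos 2.47-fold lower. The 10 lowest named genes were Sfrp2, Tnc, Mcpt8, Postn, Pcp4, Stfa2, Sfrp1, Islr, Cstdc4 and Mfap2. They had at most 1 UMI in the ameloblasts. Sfrp2, a secreted Wnt modulator of mesenchyme, had 418 CPM in the other barcodes and 0 in the ameloblasts, at least 74.7-fold lower. Respiration genes stayed within 2-fold in 16 of 18 cases, apart from Ndufa1, at 1802 against 234 CPM, and Atp5a1, at 216 against 441 CPM.

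Other leading genes are less familiar in enamel. Ctnna2, a catenin best known from neurons, had 1285 CPM in 69 barcodes against 2.44, 527-fold higher (300 to 1024). Papln, an extracellular matrix protein, had 699 CPM in 61 barcodes and 1 UMI elsewhere. Tesc, a calcium-binding regulator of sodium-proton exchange, had 712 against 2.85 CPM. Akain1, an A-kinase anchor inhibitor, had 88 UMIs in 25 barcodes and 0 elsewhere, at least 269-fold higher. Clu (clusterin, an extracellular chaperone) had 6455 against 49.6 CPM, 130-fold higher (114 to 149), and it ran from 0 to 41848 CPM over the 12 deep barcodes.

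The nearest comparison within the library was with 43 other barcodes that held at least 3 UMIs of Krt5, Krt14, Krt15, Krt17, Epcam and Cdh1. Of 6448 genes compared, 1021 (15.8%) were higher and 1653 (25.6%) lower in the ameloblasts. The 43 also held Col1a1 at 22619 CPM, so they are not pure epithelium. When at least 20 epithelial UMIs per 10000 were also required, 40 barcodes were left with 97.2 CPM of Col1a1, and 1162 genes were higher and 1230 lower. Mmp20, Acp4, Papln, Sox21, Fam20a, Amtn and Klk4 had no UMI in the 43, and Enam had 5 against 14657 (1737-fold, 744 to 5349). The laminin chains Lama3 and Lamb3 were 52.8-fold and 39.8-fold higher.

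Several epithelial genes were alike or lower in the ameloblasts in this comparison. Krt14, Krt15 and Krt17 helped to choose the comparison barcodes, which raises their levels there, so their values are a description and not a finding. Krt14 had 1884 against 1574 CPM, a ratio between 1.07 and 1.33, and against the 40 stricter barcodes it was lower, at 1884 against 2516 CPM. Krt15, a keratin of the less differentiated enamel organ, had 220 UMIs in the other epithelial barcodes and 0 in the ameloblasts, at least 124-fold lower, and Krt17 was 37.1-fold lower (23.2 to 63.3). Against the 40 stricter barcodes, Shh had 1.87 against 211 CPM and Mki67 1.87 against 491. Odam had 267 and 274 CPM in sum, but the 79 ameloblasts without Klk4 had 4.66 CPM. Of 16 cell cycle genes, 15 were lower here as well.

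Ameloblast barcodes differed among themselves in the maturation gene Klk4. It was found in 11 of 90 barcodes (12.2%, 6.26 to 20.8), and in 11.1% after thinning. In the 12 deep barcodes Klk4 had 88, 178 and 25 UMIs in 3 and 0 in each of the other 9, at 11033 to 58076 other UMIs. The 3 with Klk4 held 26887, 30290 and 32017 other UMIs. Their Amelx and Ambn shares were 44.6%, 37.5% and 31.2%, below the lowest of the 9 (46.2%). Because Klk4 defines this split, and because it was chosen after the values were seen, what follows is a description. The genes named for it that are not leading or list genes, such as Aplp2, Hap1, Id4, Fth1, Tspan6 and Tent5a, were likewise chosen after their values were seen.

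Of 3276 genes compared between the 3 and the 9, 463 (14.1%) were 2-fold higher and 1034 (31.6%) lower. The barcode values of the groups did not overlap for 138 genes (4.21%) higher and 54 (1.65%) lower. Csn3 had 29345, 27930 and 16647 CPM in the 3. In the 9 its lowest, median and highest values were 0, 0 and 2719 CPM. Its summed ratio was 208 (148 to 303), and the groups did not overlap. Car2 had 707, 7791 and 906 CPM in the 3 and at most 86.4 CPM in the 9. Calb1, found in 89 of the 90 ameloblasts, had 15249, 12116 and 15679 CPM against 1367 to 6946 (median 3548), 3.83-fold higher (3.53 to 4.16).

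Odam, Alpl, Slc24a4 and Slc26a1 had no UMI in any of the 9. Odam, a protein of the maturation-stage basal lamina, had 1, 108 and 9 UMIs in the 3, so most of its 143 UMIs in all ameloblasts came from 1 barcode. The phosphatase Alpl had 2, 44 and 7 UMIs, the potassium-dependent sodium-calcium exchanger Slc24a4 5, 23 and 16, and the anion exchanger Slc26a1 5, 29 and 2. Amtn had 46, 48 and 58 UMIs, but the groups overlapped, since 1 of the 9, with 11033 other UMIs, held 24 Amtn UMIs and 30 of Csn3 without Klk4. Runx2 had 14, 26 and 22 UMIs against 0 or 1, and Hap1, which binds huntingtin, 13, 12 and 52 against 0. The iron storage gene Fth1 had 7652 to 13734 CPM against 765 to 6254.

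**Figure D5:**
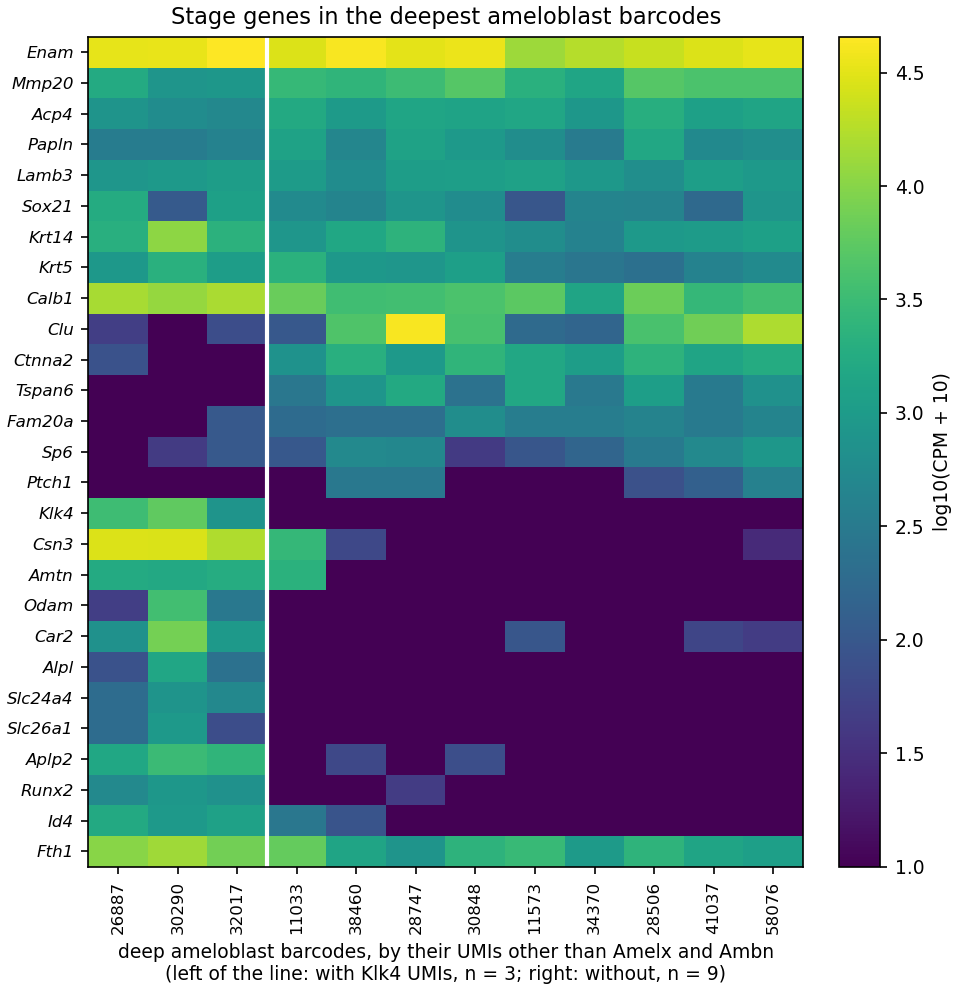
Log10(CPM + 10) of 27 genes in the 12 deep ameloblast barcodes, each column labelled by its other UMIs, with the 3 barcodes that hold Klk4 left of the white line and the 9 without to its right. Csn3 and Calb1 are brighter on the left, Clu, Ctnna2 and Tspan6 on the right, and the column with 11033 UMIs shows Csn3 and Amtn without Klk4.

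Other genes were lower in the barcodes with Klk4. Clu had 37.2, 0 and 62.5 CPM in the 3 against 90.6 to 41848 CPM (median 4069) in the 9. Within the 9 it spanned 1 to 1203 UMIs, so it varied there as well. Ctnna2 had 2, 0 and 0 UMIs against 8 to 104, 74.2-fold lower (20.4 to 614), and Tspan6, a tetraspanin, 0 in each against 3 to 48. Acp4 had 500 to 781 CPM against 844 to 1929. Mmp20 was 3.24-fold lower in sum (2.63 to 4.04), at 1711, 792 and 843 CPM against 1426 to 4981, with overlap. Enam overlapped throughout, at 33622, 34071 and 45476 CPM against 13220 to 41264.

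By list, pH control and calcium genes were higher in the barcodes with Klk4. Of 7 pH genes compared, 6 were higher and 0 lower (median log2 3.77, against -0.44 over all genes). Of 13 calcium and phosphate genes, 8 were higher and 2 lower (median 1.34), including the store-operated channel gene Orai1 with 2, 19 and 3 UMIs against 0 to 2. Genes of translocation and folding were lower in 14 of 23 cases and higher in 1, with a median of -1.30. Ssr4 was 6.86-fold lower (4.52 to 10.9) and the chaperone Hspa5 had 101 against 499 CPM. Vesicle transport genes were lower in 12 of 21 and higher in 1 (median -1.09). Ptch1 had 0 UMIs in all 3 barcodes with Klk4, and 0 in 4 of the 9, which held up to 23 each. The mitochondrial share was 3.14% to 4.92% in the 3 and 0.0146% to 4.04% in the 9, and its part in these values was not tested.

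The shallower barcodes gave a second look at this split, with Klk4 again setting the groups. Of 78, 8 held Klk4, and none of the 8 fell into a set with a deep barcode. Of the 8, 3 formed a set of like barcodes and 2 another. The other 70 included barcodes that shared a set with a deep barcode without Klk4, as in the sets of 20 and 12. The second look is therefore not independent of the first. Csn3 was detected in 8 of 8 against 10 of 70, at 46879 against 5403 CPM, 8.68-fold higher (7.86 to 9.58). Car2 had 37 UMIs in 8 of 8 against 3 UMIs in 3 of 70, Alpl 12 in 8 against 1, Aplp2 28 in 7 against 1, and Odam 23 in 7 against 2. Calb1 was 5.73-fold higher (5.08 to 6.46) and Fth1 had 33287 against 2660 CPM. Clu was 69.5-fold lower in sum, with 1 UMI in 8 barcodes against 588 in 56 of 70. Ctnna2 had 2 UMIs against 215. Tent5a, Tspan6, Fam20a and Sp6 had none among the 8, against 213, 102, 59 and 40 UMIs in the 70. Runx2, with 2 UMIs against 3, and Orai1, with 1 against 5, were too sparse to compare. The keratins Krt5 and Krt14 did not repeat. Krt5 was 2.11-fold higher with Klk4 in the deep barcodes, but its ratio here was 0.381 (0.121 to 0.917). Krt14 was 4.53-fold higher in the deep barcodes and had a ratio of 0.911 (0.572 to 1.39) here. The 3 deep barcodes with Klk4 held 54, 324 and 71 Krt14 UMIs, so its higher sum there came mainly from 1 barcode. For both keratins the levels of the deep groups overlapped.

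A Leiden clustering of the 90 barcodes without Amelx and Ambn gave 5 clusters of 24, 22, 19, 13 and 12. The cluster of 19 held all 11 barcodes with Klk4, and its leading genes were Csn3, Klk4, Amtn, Odam, Car2 and Aplp2. The leading genes describe the clusters and are no separate finding. Clusters of 13 and 12 barcodes held no deep barcode.

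Ameloblast barcodes also differed in nuclear and mitochondrial RNA. The set of 9 with 1959 to 2909 other UMIs had no UMI of Malat1, a nuclear-retained RNA, a mitochondrial share of 0.284% to 0.530% and an Amelx and Ambn share of 71.9% to 74.4%. The largest set, of 20, had 7 Malat1 UMIs, or 179 CPM, and 0.0146% to 0.627% mitochondrial UMIs. The set of 9 that includes a deep barcode had 31217 CPM of Malat1. Over all ameloblasts Malat1 was detected in 70.0%, close to the 71.7% of other barcodes, and its summed level was 20534 against 15972 CPM. By depth, median mitochondrial shares were 0.156%, 1.73% and 2.47% in barcodes with under 1000, from 1000 to under 3000, and 3000 or more other UMIs, while Amelx and Ambn took 7255, 6004 and 5249 of 10000 UMIs. Enam was lower at low depth (16953, 17436 and 29941 CPM) and Acp4 higher (3108, 1753 and 1172 CPM).

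The same rule found 3 barcodes among 7517 kept in Cxcl12-GFP P6 (0.0399%, 0.00823 to 0.117) and 0 of 5657 at day 25, which allows up to 0.0652%. The 3 had 11507, 11320 and 9215 other UMIs, and Amelx and Ambn took 3909, 3214 and 4200 of every 10000 UMIs. Their Enam UMIs were 109, 141 and 139, and those of Calb1 13, 9 and 56. Klk4, Csn3 and Amtn had 0 UMIs in all 3, as in most of the 9 deep barcodes without Klk4, while Acp4 had 20, 20 and 35 UMIs and Clu ranged from 34 to 1993. The libraries list different genes (28006 against 32286), so genes were matched by ID. The sorts also differed, and neither shares nor levels are compared between the libraries.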

How the data were processed

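Single cells of the Cxcl12-creER P6 library were measured by droplet 3' sequencing. The authors deposited a matrix of raw counts of UMIs for each gene in each barcode. The matrix header names Cell Ranger 6.0.0. Per the submitters' processing notes, Cell Ranger, Seurat and mm10 were used; filters made before deposit are not stated there. The members and the gene lists were chosen with earlier results of these data known. Of the barcodes, 536 were left out for under 500 genes and 24 for over 15% mitochondrial UMIs. Counts were summed over barcodes without Amelx and Ambn and divided by the remaining total (CPM). Intervals are exact Poisson for levels, conditional binomial for ratios and Clopper-Pearson for shares, at 95%, and cover counting error only. A fold against 0 UMIs is at least the value against 3 UMIs in the group. Named genes were the given markers, Cxcl12, tdTomato, the genes with the 15 highest and 10 lowest ratios that reached 50 CPM and 50 UMIs, and up to 8 genes per list by level. The fold and chi-square calculations were tested on simulated counts. Doublets were kept in the main values, and the 10 highest scores, by a Scrublet-like scheme, held no member. Leiden clustering used 500 genes, 10 components, 10 neighbours and resolution 1. Of 32286 listed gene IDs, 32158 matched the GENCODE annotation of GRCm38, the same assembly as mm10. Some genes are not reported here. Alternatives are in the closing section. Clustering used leidenalg 0.10.2 with igraph 0.11.9, statistics scipy 1.17.1 and numpy 2.4.6, and tables pandas 2.3.3, under Python 3.11.15, with plots by matplotlib 3.10.9.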

Additional observations from a re-analysis of the deposited data

Results flagged for a closer look

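Outside the 1131 kept barcodes, 21 further barcodes held Amelx and Ambn at or above 1000 per 10000 UMIs. They were left out because 19 had under 500 genes and 3 were over the mitochondrial limit, 1 of which failed both. They were not analysed further. At day 25, where no barcode passed the rule, Ambn still gave 6453 UMIs in 959 barcodes, with at most 232 in any, while Amelx gave 64 UMIs in 6 barcodes.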

How the results depend on the processing

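Across 13 alternatives, 5 of the leading and further list genes counted below turned from past 2-fold, all without the 11 members with Klk4. Their log2 ratios became -2.01 for Car2, -1.77 for Odam, -1.15 for Slc26a1, and -0.69 for Klk4 and Slc24a4. The last 3 then had 0 UMIs, by construction for Klk4. Of 351 values of the 27 leading genes 286 stayed within counting error, 64 moved and 1 reversed, and of 2054 values of 158 further list genes 1755 stayed, 295 moved and 4 reversed. Part of the values that stayed could not move. A limit of 500 per 10000 chose the same 90 barcodes, and dropping the minimum level changes only which genes are compared. A limit of 2000 per 10000 and leaving out the 2 members nearest the threshold were nearly the same alternative. Krt17, Smo, Calr and Fos came within 2-fold in at least 1 alternative. Without the members with Klk4 other list genes did too, among them Runx1 (log2 2.36 to 0.49), Atp6v1a (2.40 to 0.61) and Dsp (1.59 to 0.59). Orai1, a list gene not among those counted above, turned from 1.31 to -0.24. Of 260 list medians 232 stayed, 28 moved and 0 reversed. The rule gave 38 barcodes with at least 1000 genes required, and the 90 barcodes counted as 30 when each set of like barcodes was counted once. Without a minimum level beyond 1 UMI, 1799 genes were higher and 6193 lower, so 22.5% of called genes were higher against 34.8%. The mean over barcodes lowered Enam from 10.56 to 9.16, and without the members with Klk4 Csn3 went from 8.49 to 6.61 (log2 ratios). Median-of-ratios scaling moved the median of all genes from -0.25 to -0.07 and gave 1321 higher and 1869 lower. With the stricter epithelial barcodes, 48.6% of called genes were higher against 38.2%. Counting each set once, taking the 12 deep barcodes alone, leaving out the 2 members nearest the threshold or those with Klk4, and the stricter epithelial barcodes were chosen after seeing the data. No paired analysis was possible because each group was 1 library. Depth limits genes under about 20 CPM and values from single shallow barcodes.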
